A study of Caenorhabditis elegans with 2 samples.

Results

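The genes described here are 10 components of the EGF, Ras and MAP kinase pathway that specifies the vulva of the nematode Caenorhabditis elegans, taken by name from 19973 protein-coding genes. They are lin-3, let-23, sem-5, let-60, lin-45, mek-2, mpk-1, lin-1, lin-31 and lin-39. Each gene was searched for ChIP-seq peaks of LSY-2, a zinc finger transcription factor, whose summit lay inside the gene or up to 2000 bp upstream of the 5′ end of any of its transcripts. The series holds 1 group of 2 biological replicates of whole worms at the L4 larval stage, male and female animals pooled, from strain OP367 with the genotype unc-119(tm4063) III; wgIs367. Their LSY-2 protein carried a GFP-FLAG tag at its C terminus, expressed from a stably inherited transgene, and chromatin was sheared by sonication. The promoter and copy number of the transgene are not stated in the labels, both replicates are of this 1 strain, and no untagged strain was analysed here.

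In vulval development the anchor cell of the gonad secretes LIN-3, an EGF-like ligand, which activates the receptor LET-23 on epidermal precursor cells. The adaptor SEM-5 couples the receptor to the Ras protein LET-60, which starts the kinase cascade of LIN-45 (Raf), MEK-2 and MPK-1 (ERK). In the nucleus the cascade acts through the ETS factor LIN-1 and the winged helix factor LIN-31, while the Hox factor LIN-39 makes the precursor cells competent to respond. Induction takes place before the L4 stage, and the same cascade is also used in other tissues, such as the germline and the excretory system.

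LSY-2 peaks in the list that the authors thresholded by the irreproducible discovery rate (IDR), a measure of how well peak ranks repeat between replicates, were found at 6 of the 10 genes. These were sem-5, let-60, lin-45, mpk-1, lin-1 and lin-39, with exactly 1 summit each. The ligand lin-3, the receptor let-23, the kinase mek-2 and the winged helix gene lin-31 had none. Among all protein-coding genes, 25.9% had a summit in the same kind of window. The windows of the 10 genes were long, from 4271 to 26426 bp against a median of 4027 bp over all genes, and longer windows held summits more often: with the genes in 5 classes of about equal size by window length, 19.6% of the class with the shortest windows had one and 40.6% of the class with the longest. Of the 10 genes, 8 were in the longest class, and 4 of these 8 had a summit. Among all 8754 genes with windows within the range of the 10, 33.1% had one. The list was not tested against other genes, and the 6 sites are described below as sites.

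The sequence at or, for lin-45, near each summit is listed below. A peak does not tell whether LSY-2 itself touched this DNA. The 100 bp centred on the summit are given on the strand of the gene in the ce11 build, from the RefSeq genome. For lin-45, whose summit lies in a 5′ UTR, the 60 bp just upstream of that UTR are given instead. Capitals mark the words GAGAGA, AGACGCAG and CGTCTC or their reverse complements, 3 words found frequently at LSY-2 summits in the same data, so that their presence here is a description.
sem-5 at chrX:7962295-7962394: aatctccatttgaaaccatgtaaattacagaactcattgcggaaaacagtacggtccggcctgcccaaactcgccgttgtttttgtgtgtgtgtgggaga
let-60 at chrIV:11692451-11692550: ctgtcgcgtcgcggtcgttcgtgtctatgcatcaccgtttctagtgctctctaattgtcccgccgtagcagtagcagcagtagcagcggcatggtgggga
lin-45 at chrIV:6747884-6747943: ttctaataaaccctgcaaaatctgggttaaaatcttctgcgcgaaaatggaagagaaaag
mpk-1 at chrIII:4223770-4223869: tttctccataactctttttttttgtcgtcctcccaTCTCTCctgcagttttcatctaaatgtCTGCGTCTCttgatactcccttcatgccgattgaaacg
lin-1 at chrIV:2281507-2281606: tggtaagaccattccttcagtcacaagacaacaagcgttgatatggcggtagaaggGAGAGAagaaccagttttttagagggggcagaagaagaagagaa
lin-39 at chrIII:7534864-7534963: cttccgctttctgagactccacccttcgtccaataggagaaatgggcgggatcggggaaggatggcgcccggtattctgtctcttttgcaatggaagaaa

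The words, searched on both strands, occurred in the 100 bp at 2 of the 6 summits, those of mpk-1 and lin-1. At mpk-1 all 3 were present: GAGAGA began 14 bp before the summit, and AGACGCAG began 13 bp after it and overlapped CGTCTC, which began 16 bp after it. GAGAGA and AGACGCAG are seen there as their reverse complements and CGTCTC directly. At lin-1 GAGAGA began 7 bp after the summit. Over all 5944 thresholded summits, 25.7% of such windows held GAGAGA, 9.3% AGACGCAG, 15.6% CGTCTC and 34.3% any of the 3. In 300 bp around the summit, GAGAGA was present at 4 of the 6 sites against 44.6% of all summits, CGTCTC at 3 against 27.1% and AGACGCAG at 1 against 14.2%. The GC content of the 100 bp ran from 42.0% at mpk-1 to 58.0% at let-60, and the median over all thresholded summits was 44.0%. The site at let-60 was the only one of the 6 whose GC content lay above the upper 5% limit of all summits, 57.0%.

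The values at each site are the signals deposited by the authors, whose unit the labels do not state, so sites are compared with each other by signal and rank within a list. Between the replicate lists, a ratio at a site is read only against the same ratio over all matched peaks. Across the thresholded list, signals ran from 59.9 to 19064.5 with a median of 114.8. The 6 sites of the pathway genes lay between 94.4 and 359.4, with a median of 125 and a median rank of 2724.5, near the middle of the list. Of the 6 genes, 2 exceeded 168, the median signal of the strongest summit over the 5169 protein-coding genes with a summit. Read counts were not given, so the depth of the libraries is unknown. In whole animals a strong site in few cells and a weak site in many cannot be told apart.

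**Figure D1:**
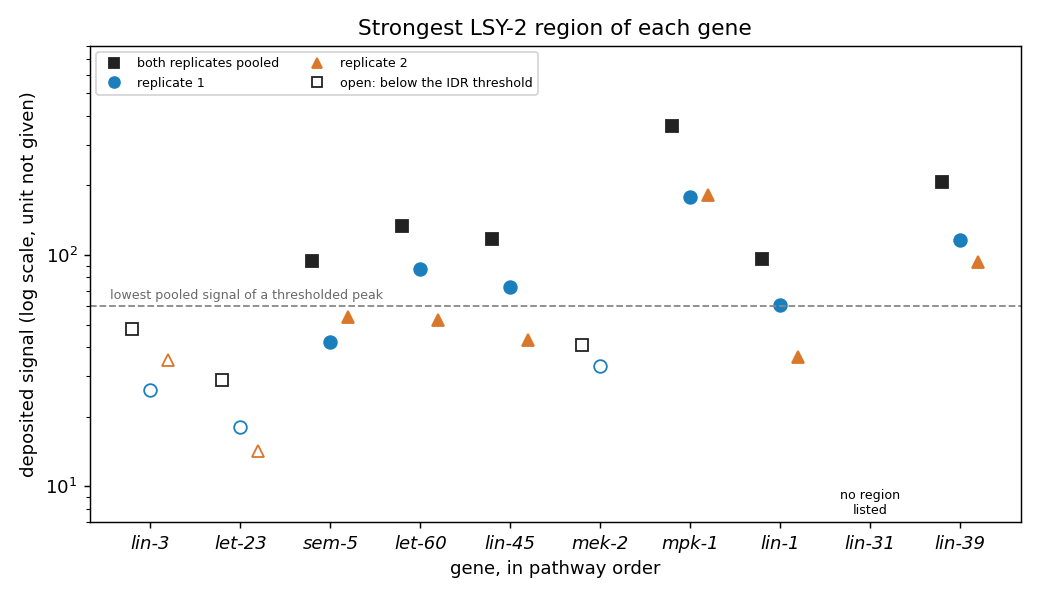
Deposited signal, on a log scale, of the strongest LSY-2 region of each gene, in pathway order, in the pooled list (squares), replicate 1 (circles) and replicate 2 (triangles). Filled symbols are the 6 sites past the IDR threshold, open symbols the strongest pooled regions of genes with none, lin-31 has no region, and the dashed line is the lowest pooled signal of a thresholded peak, 59.9. The mek-2 region has no triangle because replicate 2 lists no summit within 200 bp of it.

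The ligand gene lin-3 (WBGene00002992, chrIV:11054308-11063768, plus strand) carried no LSY-2 region near any of its 7 transcript 5′ ends, not even in the list of all 30000 pooled regions. Its only pooled region lay at the other end of the gene, in the 3′ UTR and 252 bp before the gene end, with a signal of 48.1 at rank 7488. Replicate 1 listed a signal of 26.0 there at rank 9268 and replicate 2 a signal of 35.1 at rank 4597. The region was thus among the 5944 strongest of replicate 2 only. It fell 1544 ranks short of the thresholded peaks, although its −log10 q-value was at the cap of the pooled list, 4.20.

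The receptor gene let-23 (WBGene00002299, chrII:9197512-9207213, plus strand) had 1 pooled region, 945 bp upstream of the first transcript 5′ end. Its signal was 29.0 at rank 12761, with 18.0 at rank 13604 in replicate 1 and 14.2 at rank 13535 in replicate 2. Both replicates thus placed a weak region there, far below the threshold. Replicate 2 also listed an intronic region 399 bp downstream of a 5′ end, with a signal of 17.7, which replicate 1 did not list within the window.

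The adaptor gene sem-5 (WBGene00004774, chrX:7959453-7961723, minus strand), whose protein joins the activated receptor to Ras activation, had a site 622 bp upstream of its single 5′ end at chrX:7962165-7962524. The pooled signal was 94.4, at rank 3676 of 5944, the lowest of the 6 sites. It was 42.2 at rank 5430 in replicate 1 and 53.8 at rank 2797 in replicate 2. It was the site with the lowest replicate 1 signal of the 6 and the third highest replicate 2 signal. No other protein-coding gene had this summit in its window.

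The Ras gene let-60 (WBGene00002335, chrIV:11688227-11691088, minus strand) had its site 1413 bp upstream of its 5′ end, at chrIV:11692408-11692587, with a pooled signal of 133.6 at rank 2526. The signal was 87.3 at rank 2346 in replicate 1 and 52.4 at rank 2883 in replicate 2. This was the only one of the 6 sites that other protein-coding genes shared: it also lay in the upstream windows of ZK792.12, whose 5′ end was the nearest, and ZK792.7, both on the opposite strand. The summit lay inside ZK792.10, an annotated non-coding RNA gene on the plus strand, which covers all of the sequence shown above. Closer to the let-60 5′ end, the pooled list gave a region 175 bp upstream with a signal of 11.4 at rank 27589 and one 354 bp downstream, in an intron, at rank 14748. Replicate 2 listed another region 918 bp upstream with a signal of 32.3 at rank 5095, for which replicate 1 had no summit within 200 bp. The pooled list held that region too, with a signal of 29.1 at rank 12703.

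The Raf gene lin-45 (WBGene00003030, chrIV:6742537-6748572, minus strand) had 6 transcript 5′ ends, and its site lay among them, at chrIV:6747666-6748025. The summit was 37 bp downstream of an internal 5′ end and 726 bp downstream of the first one, in the 5′ UTR of 1 isoform and in the first intron of others. The pooled signal was 116.8 at rank 2923, with 73.0 at rank 2866 in replicate 1 and 43.1 at rank 3660 in replicate 2. At the most upstream 5′ end the pooled list gave only a weak region 53 bp upstream, with a signal of 29.8 at rank 12416. A second thresholded peak, of signal 77.4 at rank 4566, lay 791 bp beyond the upstream limit of the window and was not counted, although no protein-coding 5′ end was nearer to it than that of lin-45.

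The MAP kinase kinase gene mek-2 (WBGene00003186, chromosome I, minus strand) had 11 pooled regions and none past the threshold. The strongest, 1277 bp upstream of its 5′ end, had a signal of 41.0 at rank 8868. Replicate 1 gave it a signal of 33.0 at rank 7156, and replicate 2 listed no summit within 200 bp. Of the 11 regions, 2 had a summit within 200 bp in both replicates, and these 2 matched the same replicate regions. The strongest region that replicate 2 listed in the gene, in an intron, had a signal of 13.2 at rank 14639. A pooled region of signal 52.0, at rank 6901, lay 20 bp beyond the upstream limit of the window and nearest to the 5′ end of nobh-1.

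The ERK gene mpk-1 (WBGene00003401, chrIII:4216763-4228108, minus strand), which encodes the last kinase of the cascade, carried the strongest site of the pathway. Its signal of 359.4, at rank 652, was exceeded by 11.0% of all thresholded peaks. The signal was 178.4 at rank 834 in replicate 1 and 181.6 at rank 511 in replicate 2, the highest of the 6 sites in each. The peak, at chrIII:4223659-4224015, was not at a 5′ end. Its summit lay in an intron of 8247 bp that 2 of the 3 isoforms share, 4288 bp downstream of the first 5′ end and 4177 bp upstream of the 5′ end of the short isoform. No other gene of the annotation overlapped the summit, and no other protein-coding window held it. Another 9 pooled regions below the threshold lay in the same intron, with signals from 13.3 to 48.4, and 5 of them had a summit in both replicates. A further thresholded peak, of signal 80.8 at rank 4338, lay 199 bp beyond the upstream limit of the mpk-1 window and nearest to the 5′ end of F43C1.5.

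The ETS gene lin-1 (WBGene00002990, chrIV:2275861-2300286, minus strand), whose protein represses vulval fate until the cascade acts on it, also had its site inside a long intron. The peak at chrIV:2281377-2281736 lay in an intron of 20948 bp, 2376 bp upstream of the 5′ end of the short isoform and 18729 bp downstream of that of the long one. Its signal was 96.3 at rank 3597, with 61.0 at rank 3560 in replicate 1 and 36.1 at rank 4452 in replicate 2. The next region, 1270 bp upstream of the short isoform, had a pooled signal of 48.1 at rank 7493. At the 5′ end of the long isoform the pooled list held no region within 2000 bp upstream. All 9 pooled regions of lin-1 lay downstream of a point 5524 bp upstream of the short isoform, so that the first 15581 bp of the gene held none.

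The winged helix gene lin-31 (WBGene00003017, chrII:3982549-3987029, plus strand), whose protein acts with LIN-1 downstream of MPK-1, was the only member with no region in any list. Neither the 30000 pooled regions nor the 30000 of each replicate had a summit in its window of 6481 bp. These lists go down to signals of 9.76 pooled, 6.25 in replicate 1 and 5.54 in replicate 2, and none held a region at lin-31. Whether reads could be mapped across this window was not tested. The nearest pooled region lay 8829 bp beyond the window and the nearest thresholded peak 20029 bp beyond it.

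The Hox gene lin-39 (WBGene00003024, chrIII:7528641-7536632, minus strand) carried the second strongest site. The peak at chrIII:7534809-7535022 had a signal of 206.5 at rank 1485, with 115.6 at rank 1610 in replicate 1 and 93.1 at rank 1358 in replicate 2. Its summit lay 109 bp upstream of the internal 5′ end, in an intron of 1889 bp of the longer isoform. The upstream 5′ end had a region of its own, 112 bp upstream, which narrowly missed the threshold: its pooled signal of 57.7, at rank 6183, was 239 ranks below the last thresholded peak. Replicate 1 gave that region 50.6 at rank 4421 and replicate 2 gave it 19.9 at rank 9213, so it was among the 5944 strongest of replicate 1 only. Of the 8 pooled regions of lin-39 below the threshold, 7 had a summit in both replicates, the highest count among the 10 genes.

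**Figure D2:**
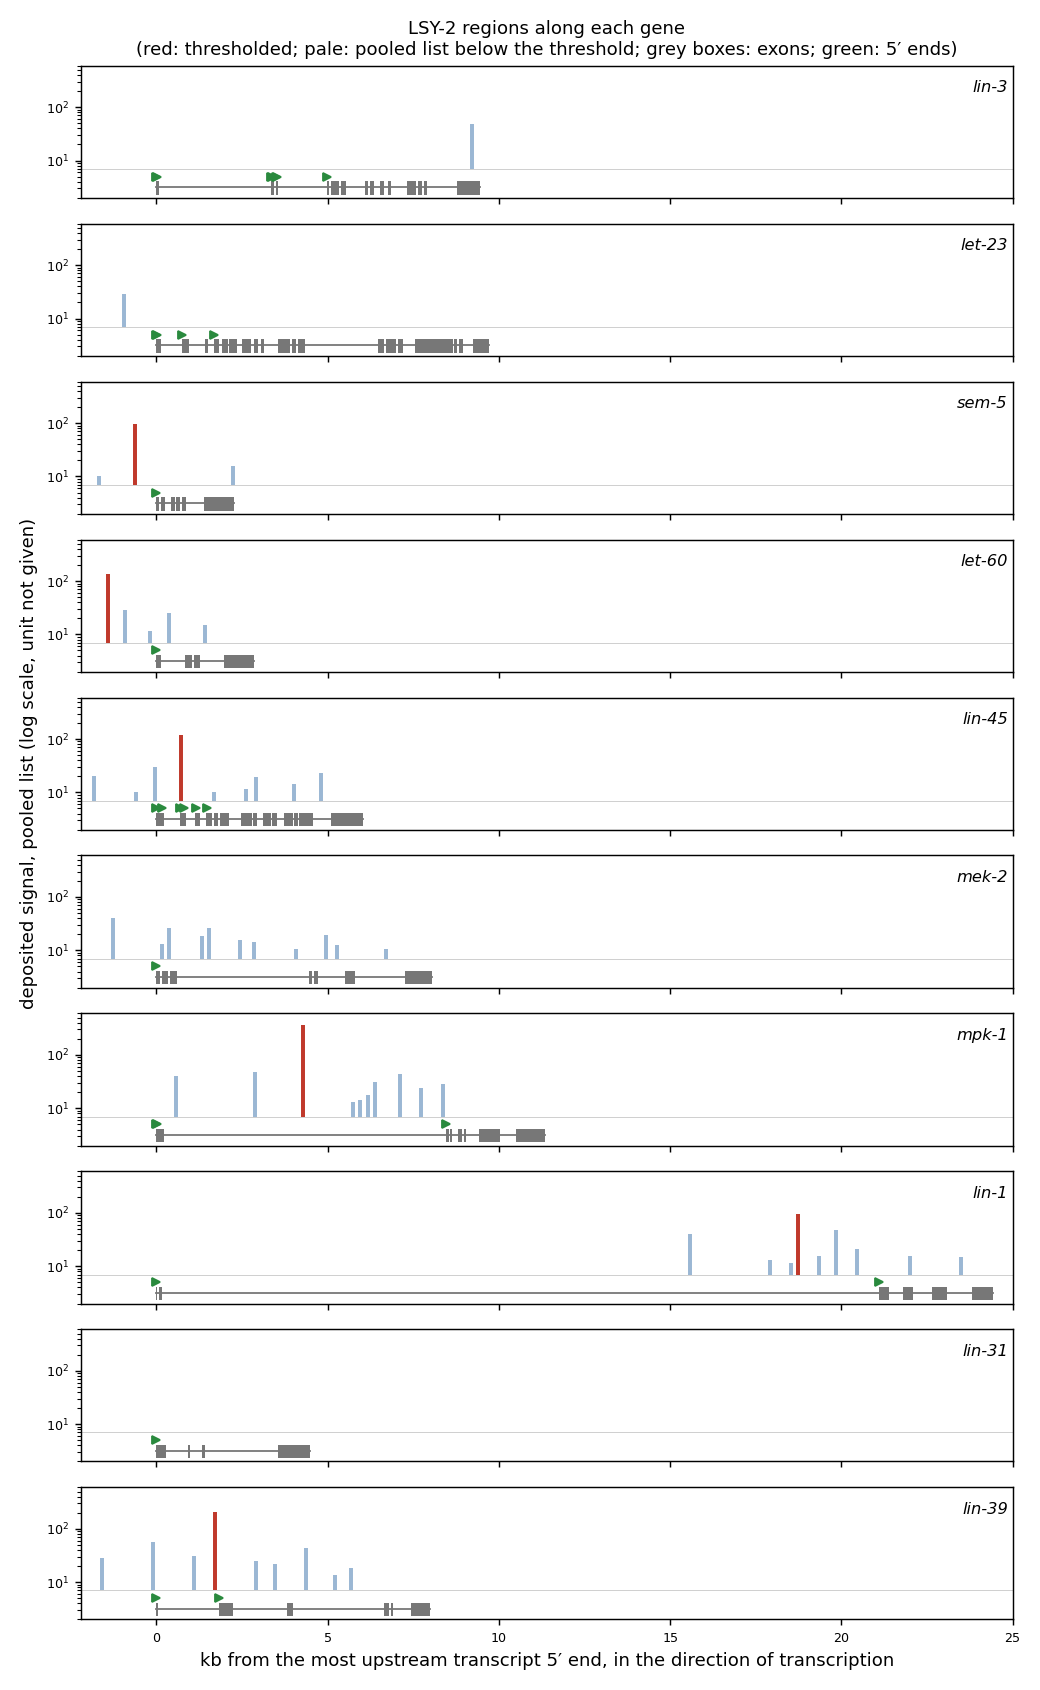
Pooled LSY-2 regions along the 10 genes, in kb from the most upstream transcript 5′ end in the direction of transcription. Vertical lines end at the deposited signal on a log scale and rise from a common baseline, red for the 6 thresholded sites and pale for regions below the threshold, with exons as grey boxes and transcript 5′ ends as green arrowheads. The sites of mpk-1, lin-1 and lin-39 are in introns upstream of an internal 5′ end, those of sem-5 and let-60 upstream of the gene.

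By position, the sites thus fell into 2 kinds. Those of sem-5 and let-60 were upstream of the whole gene, and those of lin-45, mpk-1, lin-1 and lin-39 were inside it. Over the 4975 thresholded summits in the window of any protein-coding gene, 40.9% were inside a gene. Of the 4 summits inside genes, 3 were in a first intron (lin-45, mpk-1 and lin-39), against 43.6% of all 2036 such summits. Counting only summits from 2000 bp upstream to 200 bp downstream of a 5′ end, 4 of the 10 genes had one (sem-5, let-60, lin-45 and lin-39), and 23.9% of all genes did. The sites of mpk-1 and lin-1 were outside such windows.

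The replicates placed the 6 summits at nearly the same bases. The summit in replicate 1 was at most 23 bp from that of the thresholded peak and that in replicate 2 at most 28 bp, the former at sem-5 and the latter at lin-45. All 6 sites were among the 5944 strongest peaks of each replicate, so that 6 of the 10 genes had a summit in both. Of all 19973 protein-coding genes 4598 did (23%), a share not matched for window length. The thresholded list was made from these same replicates, and 98.0% of all its peaks were matched in both. Agreement at the 6 sites is thus largely fixed by how they were selected. The order of the sites was the same in both replicates except for sem-5, and mpk-1 and lin-39 were first and second in each.

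The deposited signals had larger values in the replicate 1 list than in the replicate 2 list, and a difference in scale or depth between the lists cannot be told apart from one in enrichment. On the log2 scale, replicate 1 exceeded replicate 2 by a median of 0.50, with an SD of 0.57 across the 5823 peaks matched in both, and by a median of 0.52 at the 6 sites (SD 0.47). The difference was 0.76 at lin-45, 0.76 at lin-1, 0.74 at let-60 and 0.31 at lin-39. It was -0.03 at mpk-1 and -0.35 at sem-5. Relative to the median of all peaks the value at sem-5 was -0.85, beyond 1 SD, and those of the other 5 were within 1 SD. The value at sem-5 was also just below the lower 5% limit of all peaks, -0.33. With 2 replicates of 1 group, no test was made of these differences.

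**Figure D3:**
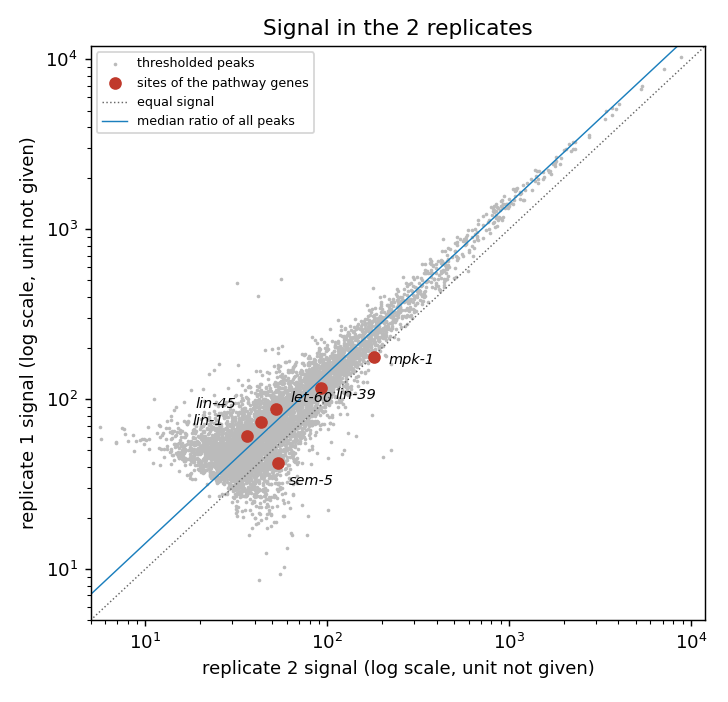
Deposited signal of the 5823 matched thresholded peaks in replicate 2 (horizontal) and replicate 1 (vertical), both on log scales, with the 6 sites of the pathway genes in red. The dotted line marks equal signal and the blue line the median ratio of all peaks. The sites of sem-5 and mpk-1 lie on or below the line of equal signal and the other 4 above it.

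Below the threshold, the 10 genes held a further 52 pooled regions. Of the 10 genes, 9 had at least 1 pooled region of any rank, against 42.6% of all protein-coding genes. That share is not matched for window length, and most of the 10 genes have long windows. Of the 52, 24 (46.2%) had a summit within 200 bp in both replicates, and so did 50.3% of all 24056 pooled regions below the threshold. The genes with the most were mek-2 with 11, mpk-1 with 9, and lin-45, lin-1 and lin-39 with 8 each. Only 1 of the 52, that of lin-39 at its upstream 5′ end, was within 1000 ranks of the threshold.

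Another 80 genes that act with the pathway, in 6 groups by role, were searched in the same windows, and 41 of them (51.2%) had a thresholded summit, against 25.9% of all protein-coding genes. Their median window was 7690 bp, a length that falls in the longest of the 5 classes above, of which 40.6% had a summit. Shares ranged widely between the groups, which were not tested against each other or against other genes.

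Genes for the placement and traffic of the receptor had summits at 10 of 12 (83.3%, median window 10896.5 bp). The strongest were at lin-7, the gene of a PDZ protein of the complex that holds LET-23 at the basolateral membrane (5573), rab-7, a GTPase of late endosomes (525), and vps-4, an ATPase of endosomal sorting (425). Each of these 3 summits also lay in the windows of other genes, elof-1 and Y54G11A.17 for lin-7, mex-1 and W03C9.5 for rab-7 and gsa-1 for vps-4. Genes that activate or scaffold Ras and the kinases had summits at 11 of 14 (78.6%, median window 7438 bp). They were led by the scaffold gene cnk-1 (254), let-92, the catalytic subunit of protein phosphatase 2A (225, a summit shared with ech-2), and the neuronal exchange factor gene rgef-1 (170). Nuclear cofactors had summits at 9 of 12 (75.0%, median window 9483 bp). The strongest of these were at unc-62 (555) and ceh-20 (307), which encode the Meis and Pbx partners of Hox proteins such as LIN-39, and at cic-1, the cyclin C gene (233, a summit shared with strm-1).

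The other 3 groups were genes for the production of LIN-3 and its repression, the vulval target genes and the list drawn up for inhibition. Their shares lay on either side of the 25.9% of all genes, which is not matched for window length. The median windows of the LIN-3 and inhibition groups fall in the class of 4490 to 6319 bp, of which 28.3% had a summit. That of the vulval targets falls in the longest class, of which 40.6% had one. The first group had summits at 4 of 14 (28.6%, median window 5392 bp): its strongest were the Retinoblastoma gene lin-35 (395) and the synMuv genes lin-36 (369) and lin-38 (219). The synMuv genes form classes that act redundantly to keep lin-3 repressed, lin-35 and lin-36 in class B and lin-38 in class A. Each of these 3 summits was shared with a neighbouring gene, vps-51, F44B9.2 and mrpl-37 in that order. Vulval targets and effectors had 5 of 16 (31.2%, median window 7551.5 bp), led by the zinc finger gene lin-29 (278), the LIM homeobox gene lin-11 (238) and lag-1, the DNA-binding factor of Notch signalling (196). The list drawn up for inhibition of Ras and MAP kinase signalling had 2 of 12 (16.7%, median window 6208.5 bp). These were the STAT gene sta-1 (197) and gap-3, a GTPase-activating protein for Ras (110). The name lst-3 on this list was not matched to a gene and was left out, so the share does not cover it. Not all members of this list are inhibitors, since it held the receptor gene egl-15, which had no summit. Genes placed in other groups can also be counted as inhibitors. Examples with summits are ark-1, sli-1, dep-1 and par-1, and these may not be all. Shares by group therefore depend on how the genes were assigned.

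**Figure D4:**
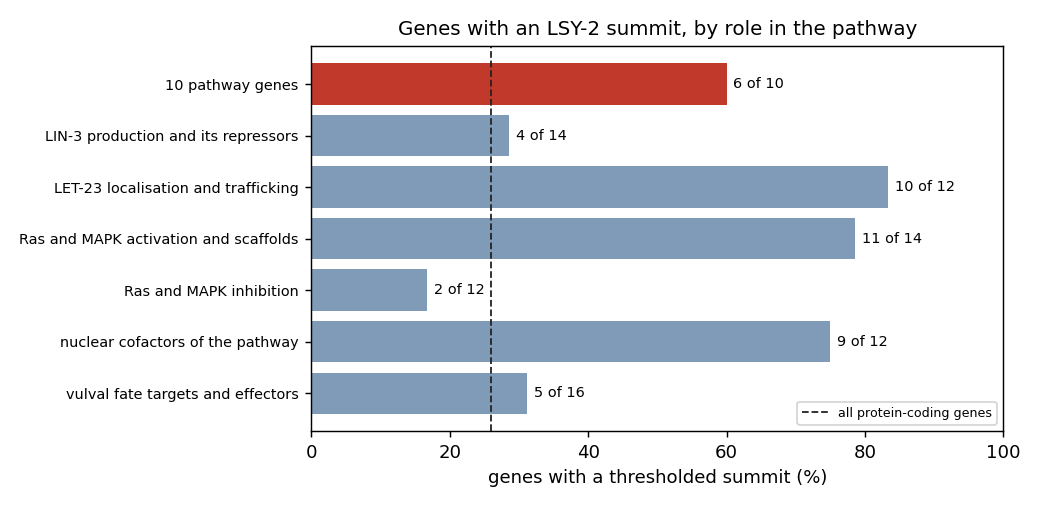
Percentage of genes with a thresholded LSY-2 summit inside the gene or up to 2000 bp upstream, for the 10 pathway genes (red) and 6 groups of genes that act with them (blue), with the number of genes beside each bar. The dashed line is the share of all protein-coding genes, 25.9%, which is not matched for window length. Names not matched to a gene are left out, and the groups range from 2 of 12 to 10 of 12.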

How the data were processed

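LSY-2 ChIP-seq peak lists from 2 replicates were used. Per the deposited notes, the authors made each replicate list from its own alignment, the pooled list from both alignments, and the thresholded list from these 3 lists. A further input file that the notes list for the first 3 is not described there and was not analysed here. No label or deposited note names the aligner, the peak caller or the IDR threshold. The ce11 lists held 30000 regions per replicate, 30000 pooled and 5944 thresholded, the last being the 5944 strongest pooled regions. The deposited signal, the deposited −log10 q-value and the deposited summit offset of each region were used. The ce10 lists were not used. Gene models were those of Ensembl release 115 for WBcel235, the ce11 sequence, and no region ended beyond a chromosome end. Each summit was assigned to all genes with it in their window. Replicate summits within 200 bp were matched, the strongest first, and 1 replicate summit could match several regions. In the lists of related genes, 80 of 84 names were matched to distinct genes. The names arf-1.2, lst-3, mdt-23 and mdt-12 were not matched and were left out.

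The rule for named genes, the 10 genes, the lists and the words were fixed with earlier results of these data known. The rule named all 10 genes, every thresholded site, the strongest pooled region of genes with none, genes sharing a site, and the 3 strongest of each other list. No test was made, because the lists hold no read counts and the series has 1 group. Depth is unknown, so no interval was given. Window assignment was checked on simulated data. Alternatives were fewer peaks, the pooled list, each replicate alone, shorter windows, 5′ ends only, peak overlap and the nearest gene only. Python 3.11.15, numpy 2.4.6, pandas 2.3.3 and matplotlib 3.10.9 were used.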

Additional observations from a re-analysis of the deposited data

How the results depend on the processing

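The count of 6 genes with a summit ranged from 4 to 9 under the alternatives planned, with the share of all genes under the same setting given in parentheses below, and lin-31 had none in any of them. With the 2972 strongest peaks it was 4 (17.7%), without sem-5 and lin-1. With 1000 bp upstream it was 5 (22%) and with 500 bp 4 (19.3%), let-60 being lost in both and sem-5 also in the second. With the nearest 5′ end only it was 5 (18.5%), since ZK792.12 took the let-60 summit. Leaving out 1 replicate gave 6 to 7 genes (26.2% either way), 7 to 8 sites and 41 to 47 of the 80 related genes. Without replicate 1, lin-3 was added. With all pooled regions (42.6%) there were 58 sites in place of 6. Counting 1000 bp upstream to 200 bp downstream of 5′ ends, chosen after seeing the data, left 3 genes and 3 sites (19.5%), those of sem-5, lin-45 and lin-39. The number of genes with a summit in both replicates was 3 with the 2972 strongest of each (15.7%), these being let-60, mpk-1 and lin-39. With the median of all peaks subtracted, the median log2 difference between replicates at the 6 sites was 0.0212 and that of lin-39 turned to -0.19. No paired analysis was possible because the series has 1 group. Depth was not given and its effect on the weak regions could not be measured.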
